A study of Mus musculus with 48 samples.

Results

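The SOX genes of glia and neural progenitors were followed in mouse astrocyte libraries: Sox1, Sox2 and Sox3 of the SOXB1 group, Sox21 of SOXB2, Sox4 and Sox11 of SOXC, Sox5 and Sox6 of SOXD, and Sox8 and Sox9 of SOXE. They were taken by symbol, and all 10 were found among the 24421 gene rows that each of the 6 deposited tables of normalized read counts holds. The study measured bulk RNA from astrocytes of 3 brain regions, cortex, hippocampus and olfactory bulb, in 48 libraries that fall into 15 groups. The first question was how astrocytes of each region change after birth, at postnatal day 1 (P1), P7 and P14, with 3 libraries per age and region except 4 for cortex at P14. The second was what changes when Gabbr1, which encodes a subunit of the metabotropic GABA-B receptor, is conditionally knocked out (cKO), read at P28 against Gabbr1 control animals.

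No genotype or treatment is given for the P1, P7 and P14 animals. At P28 there were 4 control and 4 cKO libraries of cortex, 2 control and 4 cKO libraries of hippocampus, and 3 of each for olfactory bulb. The labels of all hippocampus and olfactory bulb P28 libraries, and of 3 of the 8 cortex P28 libraries, add tamoxifen as the treatment of both genotypes. The labels name no Cre driver, no sex and no animal per library, so that p-values measure the spread between these libraries, which may in part be technical.

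SOX proteins are transcription factors that bind the minor groove of DNA through a high-mobility-group domain and bend it, and they usually act with a partner factor at a neighbouring site. SOXB1 proteins keep neural stem and progenitor cells undifferentiated, whereas SOX21 counters them. SOXC proteins are high in newly formed neurons and their precursors, SOX9 starts gliogenesis and is kept in mature astrocytes, SOX8 is its close relative, and SOX5 and SOX6, which lack a transactivation domain, modulate the other groups in neuronal and oligodendrocyte lineages.

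The libraries held 1773226 to 15008466 recovered gene reads, the shallowest being of P14 olfactory bulb. Each table was scaled on its own, so values are compared only within a table. All 10 listed astrocyte markers were present in every group, but some only at a few counts at P1. In olfactory bulb P1 the means were 0.853 for Ntsr2, 2.03 for Gfap and 2.42 for S100b, while the highest, Slc4a4, was at 761. Hippocampus P1 had S100b at 3.86 and Gjb6 at 4.45, with Aldoc highest at 1586. Neuronal markers were present too and were lower with age: the summed level of the 15 listed was 8668 to 12318 normalized counts in cortex at P1 and 275 to 482 at P14. For hippocampus these sums were 8681 to 11246 and 489 to 759.7, and for olfactory bulb 18907 to 22455 and 2101 to 3369. Gabbr1 stood at 927 to 1930 normalized counts in cortex P28 controls and 89.8 to 211 in cKO (limma log2 difference -3.45 ± 0.29, SE, adjusted p = 4.39e-05). Hippocampus controls had 779.8 to 824 against 152 to 379.9, and olfactory bulb controls 184 to 318 against 63.6 to 99.5. Neither region had overlap, but 15% and 10% of all genes had none in these comparisons. The log2 differences of -1.84 and -1.48 missed the threshold (limma adjusted p = 0.936 and 0.877). In 2 libraries the ribosomal RNA gene Rn45s took 0.594% (hippocampus P28 cKO, replicate 2) and 0.476% (olfactory bulb P28 control, replicate 2) of the reads, against 13.7% to 38.0% in the others.

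Upstream sequence is shown for Sox4 and Sox11, the pair with the largest falls with age, and for Sox2, as the 250 bases before the RefSeq transcript start (GRCm38.p6), 5′ to 3′ on the strand of the gene. Capitals mark every match, on either strand, to 5 strings: ACAAAG and ACAATG, which SOX proteins can bind, the CCAAT box CCAAT, the SP/KLF string GGGCGG and the TATA string TATAAA. None of these matches overlaps another in the windows shown.
Sox4, chr13:28953700-28953949, minus strand: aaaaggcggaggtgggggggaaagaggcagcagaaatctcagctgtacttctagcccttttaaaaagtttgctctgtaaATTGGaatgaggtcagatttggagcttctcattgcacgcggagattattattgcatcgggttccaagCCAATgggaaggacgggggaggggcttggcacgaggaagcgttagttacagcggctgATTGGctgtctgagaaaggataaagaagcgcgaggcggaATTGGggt
Sox11, chr12:27342719-27342968, minus strand: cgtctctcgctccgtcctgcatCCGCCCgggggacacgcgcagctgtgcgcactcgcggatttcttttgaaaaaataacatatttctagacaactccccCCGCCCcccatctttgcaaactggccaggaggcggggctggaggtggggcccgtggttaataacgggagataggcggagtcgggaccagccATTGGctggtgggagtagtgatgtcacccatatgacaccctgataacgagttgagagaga
Sox2, chr3:34649745-34649994, plus strand: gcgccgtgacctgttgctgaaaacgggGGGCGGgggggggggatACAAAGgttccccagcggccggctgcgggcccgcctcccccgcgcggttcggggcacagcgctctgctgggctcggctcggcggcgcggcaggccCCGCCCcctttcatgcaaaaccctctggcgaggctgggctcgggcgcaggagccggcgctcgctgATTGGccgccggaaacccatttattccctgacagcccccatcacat
The Sox4 window held 4 CCAAT matches and none of the other strings. Of 32851 RefSeq windows of the same length, 33.8% had at least 1 CCAAT match and 0.84% had 4 or more. The Sox11 window held 1 CCAAT and 2 GGGCGG matches, and 32.7% of windows held GGGCGG. Only the Sox2 window of these held a SOX string, 1 match to ACAAAG beside 1 CCAAT and 2 GGGCGG matches. ACAAAG was found in 16.5% of all windows; ACAATG was in 10.7% and TATAAA in 12.4%. CG dinucleotides numbered 11 in the Sox4, 17 in the Sox11 and 27 in the Sox2 window, where the median of all windows was 6. A match is a description of the letters, not a binding site.

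Both SOXC genes fell steeply from P1 to P14 in all 3 regions, Sox11 by 13.0-fold to 18.9-fold and Sox4 by 7.50-fold to 8.99-fold. Sox11 is a single-exon gene (GRCm38 chr12:27334264-27342574, minus strand) that drives neuronal gene programs in immature neurons. In cortex its normalized counts were 5471, 3287 and 3239 at P1, 1001, 1007 and 689 at P7, then 191, 296, 219 and 225 at P14. Every later library lay below every earlier one at both steps. The log2 change on log2(value + 1) was -4.07 ± 0.20 (SE) from P1 to P14, with -2.13 of it between P1 and P7 (limma adjusted p = 1.34e-09 and 5.58e-06).

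In hippocampus Sox11 counts were 9625, 14196 and 9487 at P1, 1827, 1072 and 717 at P7, then 602, 638 and 498 at P14. The groups again did not overlap, and the change was -4.24 ± 0.28 (limma adjusted p = 2.9e-07), of which -3.28 came by P7. The later step of -0.96 (adjusted p = 0.0232) was -0.60 without P7 replicate 1, -0.99 without P7 replicate 2 and -0.85 without P14 replicate 3, and was no longer called in these 3 fits. In olfactory bulb the counts were 11006, 12302 and 12598 at P1, 2267, 1989 and 5546 at P7, then 642, 1446 and 843 at P14. Here 1 of 3 P7 libraries, replicate 3, stood well above the other two, and its Sox4 count was the highest of its age as well. The change from P1 to P14 was -3.70 ± 0.36 (limma adjusted p = 9.64e-06), split into -2.03 and -1.67 at the earlier and the later step. Without that library the earlier step was -2.49, and both steps were still called.

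Sox4, the other SOXC gene (GRCm38 chr13:28948919-28953713, minus strand, 1 exon), overlaps SOX11 in function. Its cortex counts were 734, 533 and 483 at P1, 142, 148 and 75.7 at P7, then 60.9, 98.7, 86.7 and 62.8 at P14. P1 stood apart from both later ages, while P7 and P14 overlapped. The log2 change was -2.29 ± 0.26 by P7 (limma adjusted p = 1.97e-05) and -0.62 ± 0.24 from P7 to P14, where the call (adjusted p = 0.0493) lay at the threshold. That later call was lost under pseudocount 0.1, no filter, TMM, quantile and median-ratio scaling, edgeR and DESeq2, where the change was -0.63 to -0.43, and on leaving out 5 of the 7 libraries 1 at a time.

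Hippocampus Sox4 counts were 931, 1216 and 887 at P1, 261, 243 and 181 at P7, then 132, 114 and 106 at P14, and olfactory bulb counts were 1592, 1446 and 1498 at P1, 446, 415 and 871 at P7, then 163, 161 and 178 at P14. In both regions all 3 ages were separate. The changes from P1 to P14 were -3.09 ± 0.19 and -3.17 ± 0.24 (limma adjusted p = 1.83e-07 and 1.36e-06), next to -2.91 ± 0.24 in cortex. Without strand in the sources used here, Sox4 reads and those of Gm26735, which lies opposite it and shares up to 2616 bases of exon, cannot be told apart.

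Neuronal markers were lower in the same libraries. By P14, 13 of 13 were called lower in cortex (median log2 change -4.40), 13 of 14 for hippocampus (-4.68) and 14 of 15 for olfactory bulb (-3.79), where 40.3%, 28.5% and 31.4% of all genes tested were called lower. Marker counts leave out genes that reached the minimum mean of 10 over a table only through the age where they were highest. The cell cycle genes, which mark dividing cells, were lower for 9 of 9 in cortex, 1 of 8 in the bulb and 7 of 10 in hippocampus. The part of these other cells in the SOXC change was not tested. Oligodendrocyte precursor markers were mixed, with 1 higher and 3 lower of 6 counted in cortex, 2 and 2 of 6 for hippocampus and 3 and 0 of 5 for olfactory bulb. Microglia markers were higher for 6 of 7, 3 of 5 and 4 of 5 in the same order, with none lower (24%, 21% and 24.8% of all genes were called higher). Endothelial markers were higher for 3 of 3 in olfactory bulb and 0 of 7 in cortex, and the 1 counted in hippocampus was lower. In bulk RNA, fewer cells of a type and less RNA per cell cannot be told apart.

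**Figure D1:**
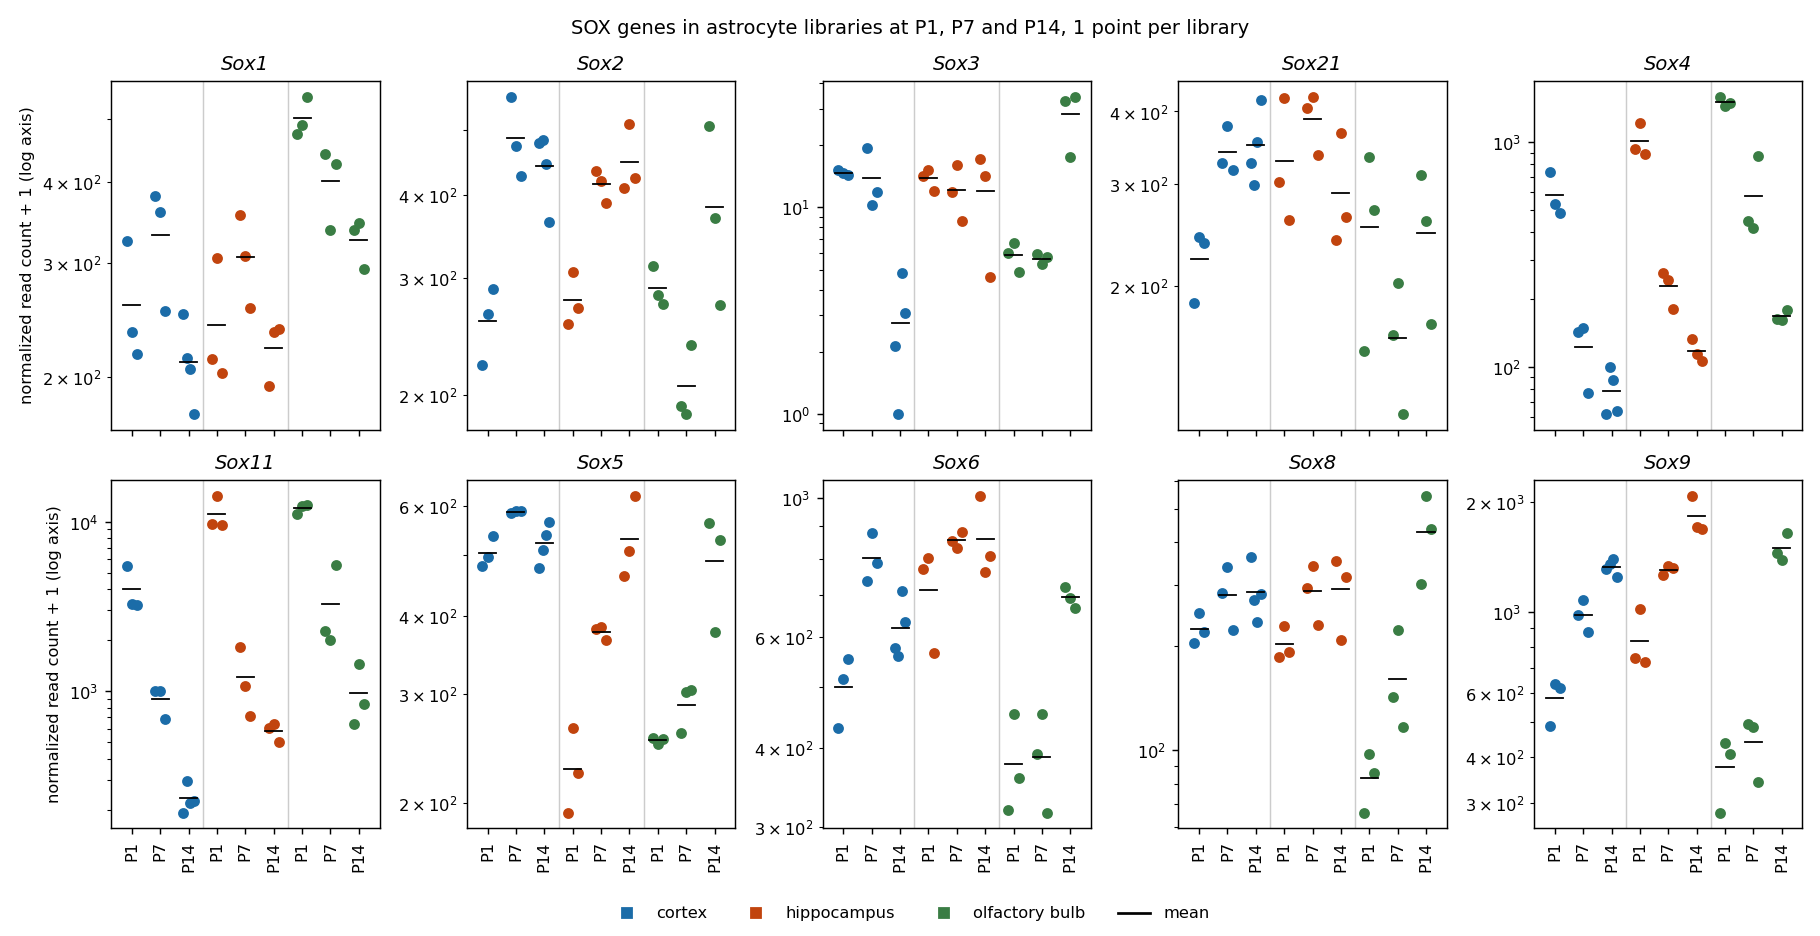
Normalized read counts plus 1 on a log axis for the 10 SOX genes at P1, P7 and P14, 1 point per library and a line at the group mean, with cortex in blue, hippocampus in orange and olfactory bulb in green; the regions were scaled separately, so heights compare only within a color. Sox4 and Sox11 step down with age in every region, Sox9 steps up, and the other genes move less or in fewer regions.

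Sox9 rose in all 3 regions. It encodes the SOXE factor that starts gliogenesis and lies at GRCm38 chr11:112782224-112787760, plus strand, with 3 exons. Cortex counts were 485, 635 and 617 at P1, 979.8, 1075 and 876 at P7, then 1303, 1349.6, 1390.1 and 1239 at P14. The 3 ages did not overlap, and the log2 change was 1.20 ± 0.11 from P1 to P14, a 2.29-fold increase (limma adjusted p = 4.22e-07). Its later step of 0.44 ± 0.11 (adjusted p = 0.00398) was 0.24 and not called under quantile normalization.

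In hippocampus Sox9 counts were 748, 1017 and 726 at P1, 1256, 1331 and 1319 at P7, then 2073, 1705 and 1680.4 at P14. All ages were again separate, with a change of 1.14 ± 0.15 (limma adjusted p = 5.61e-05) that was 0.75 under quantile normalization. The step from P7 to P14, 0.48 ± 0.15 (adjusted p = 0.0285), was 0.016 and not called under quantile normalization, and its call was lost without any 1 of the 3 P7 libraries or P14 replicate 1 (0.38 to 0.49).

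In olfactory bulb Sox9 counts were 281, 435 and 406 at P1, 491, 484 and 341 at P7, then 1445, 1385 and 1639.6 at P14. P1 and P7 overlapped and their difference of 0.23 ± 0.20 was not called (limma adjusted p = 0.554), whereas P14 lay above both, and the change from P7 was 1.78 ± 0.20 (3.43-fold, adjusted p = 4.24e-05). In cortex and hippocampus the earlier step was called at 0.76 and 0.67 (limma adjusted p = 0.000196 and 0.00738). The difference in timing between regions was not tested, because the tables were scaled separately.

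Sox8 (GRCm38 chr17:25565892-25570686, minus strand), a SOXE gene known in oligodendrocytes and astrocytes, rose in the olfactory bulb. Its counts there were 64.9, 96.4 and 84.9 at P1, 142, 222 and 116 at P7, then 302, 544 and 436 at P14, with no overlap between ages. The change from P1 to P14 was 2.34 ± 0.29, or 5.08-fold (limma adjusted p = 4.53e-05), and the part from P1 to P7 (0.92, adjusted p = 0.0663) passed the threshold only under a minimum mean of 100, edgeR, DESeq2 and without P7 replicate 3 (0.92 to 1.12).

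Cortex Sox8 counts were 203, 249 and 218 at P1, 283, 337 and 222 at P7, then 362, 270.4, 233 and 281 at P14, and hippocampus counts were 185, 227 and 192 at P1, 295, 341 and 229.9 at P7, then 351, 207 and 317 at P14. P1 and P14 overlapped in both. The differences of 0.35 ± 0.16 and 0.50 ± 0.22 from P1 to P14 were not called (limma adjusted p = 0.0781 and 0.0825). They passed the threshold under TMM, quantile and median-ratio scaling in cortex and with edgeR and DESeq2 in both regions (0.47 to 0.63), and without P14 replicate 3 in cortex (0.44) or P14 replicate 2 in hippocampus (0.73). Sox8 shares up to 329 bases of exon with 2810468N07Rik on the opposite strand.

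Markers of myelinating oligodendrocytes, cells that also express Sox8, rose in the same tables: 3 of 3 counted by P14 in each region. In the bulb their summed level went from 103 to 201 at P1 to 1933 to 2242 at P14. The counts leave out Cldn11, Mag, Mobp and Mog in cortex and Mobp in the other regions, which passed the minimum only through P14. Mag and Opalin were at 0 in all olfactory bulb P14 libraries. Astrocyte markers were higher for 9 of 10 in cortex and 9 of 9 in the bulb and 10 of 10 for hippocampus. Of all genes tested, 24%, 24.8% and 21% were called higher in that order. The part of both cell types in the Sox8 and Sox9 changes was not tested.

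Sox2, the SOXB1 factor kept from neural stem cells into astrocytes (GRCm38 chr3:34650405-34652461, plus strand, 1 exon), rose early in cortex and hippocampus and late in the olfactory bulb. Cortex counts were 221, 264 and 288 at P1, 560.3, 473 and 426 at P7, then 478, 482, 443 and 363 at P14. P1 lay below both later ages, which overlapped. The log2 change was 0.92 ± 0.14 by P7 and 0.78 ± 0.13 by P14 (limma adjusted p = 0.000272 and 0.000186).

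Hippocampus Sox2 counts were 255, 306 and 269.7 at P1, 434, 419 and 388 at P7, then 408, 510.5 and 423 at P14, in the same order. The change was 0.58 ± 0.15 by P7 (limma adjusted p = 0.017) and 0.69 ± 0.15 by P14 (adjusted p = 0.00231). The call at P7 was lost without P1 replicate 1, P1 replicate 3, P7 replicate 1 or P7 replicate 2, at 0.52 to 0.57. In olfactory bulb the counts were 312, 282 and 273 at P1, 192, 187 and 237 at P7, then 507, 368 and 272 at P14. All 3 P7 libraries lay below all 3 P1 libraries, a difference of -0.50 ± 0.22 that was not called (limma adjusted p = 0.185), and P14 lay above P7 by 0.86 ± 0.22 (adjusted p = 0.00732). From P1 to P14 the olfactory bulb difference was 0.36 ± 0.22 and missed the threshold (adjusted p = 0.175), except without P14 replicate 3 (0.58).

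Sox2ot, the long noncoding gene within which Sox2 lies, fell in cortex and olfactory bulb. Its mean was 337 normalized counts at P1 and 155 at P14 in cortex, and 398 and 107 in olfactory bulb, with log2 changes of -1.10 and -1.91 (limma adjusted p = 2.66e-05 and 6.92e-05). In hippocampus the difference of -0.53 was not called (adjusted p = 0.259).

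Sox1 (GRCm38 chr8:12395295-12400126, plus strand), a SOXB1 progenitor gene, had a small fall in the olfactory bulb, where counts were 473, 489 and 540.5 at P1, 441, 336 and 426 at P7, then 336, 345 and 293 at P14 and P14 lay below P1 (-0.63 ± 0.15, limma adjusted p = 0.00433). In cortex the counts were 323, 234 and 216 at P1, 380.2, 359 and 252 at P7, then 249, 213, 204 and 174 at P14, and it fell from P7 to P14 by 0.64 ± 0.18 on the log2 scale (limma adjusted p = 0.00868) with P1 between. In hippocampus, where counts ranged from 192 to 354 over the 9 libraries, limma called no Sox1 change on the deposited values, while the step from P7 to P14 was -0.59 and called under quantile normalization. Sox1 shares up to 86 bases of exon with Gm25239 on its own strand.

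Sox21 (GRCm38 chr14:118233232-118237030, minus strand), which counters SOXB1 activity, rose in cortex. It shares up to 713 bases of exon with Gm4675 on the opposite strand. Its cortex counts were 186, 242 and 236 at P1, 324, 377 and 316 at P7, then 325, 297, 354 and 418 at P14. P1 lay below both later ages, and the difference between P14 and P1 was 0.65 ± 0.14 (limma adjusted p = 0.000843). Hippocampus and olfactory bulb differed by -0.17 ± 0.22 and -0.0025 ± 0.32 (limma adjusted p = 0.533 and 0.995), with P1 and P14 overlapping in both. From P7 to P14 hippocampus Sox21 was not called, but it was -0.61 and called lower under quantile normalization and -0.62 and called lower without P14 replicate 2. Whether the regions differ was not tested.

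Sox3 (GRCm38 chrX:60891366-60893430, minus strand), the X-linked SOXB1 gene, was the lowest member per kb in every group. Olfactory bulb counts were 5.02, 5.72 and 3.86 at P1, 4.92, 4.29 and 4.75 at P7, then 31.8, 16.5 and 33.3 at P14. The P14 libraries, at 12 to 24 reads each, lay above all earlier ones. Its mean over the table, 12.2, passed the minimum of 10 only through P14, since the P1 and P7 libraries averaged 4.76. These values are therefore a description, and the fit drawn for them in the plot of P14 minus P1 is no test. Hippocampus counts, at 2 to 37 reads, showed no called change. In cortex the mean was under the minimum of 10 and no test was made: counts were 14.2, 13.6 and 13.3 at P1, 18.5, 9.28 and 10.9 at P7, then 1.13, 0, 3.78 and 2.08 at P14, and P14, at 0 to 12 reads where a count of 0 allows up to 3, lay below both earlier ages.

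The SOXD pair was followed next. Sox5 (GRCm38 chr6:143828425-144781977, minus strand), whose product binds DNA without activating transcription itself, spans 953553 bases. It shares up to 1330 bases of exon with Sox5os1 on the opposite strand. Hippocampus counts were 192, 263 and 222 at P1, 379, 383 and 365 at P7, then 462, 507 and 622 at P14, rising without overlap by 1.23 ± 0.17 (limma adjusted p = 8.48e-05). Olfactory bulb counts were 254, 248 and 253 at P1, 258, 300.2 and 303 at P7, then 563, 375 and 528 at P14, with a change of 0.93 ± 0.17 (adjusted p = 0.000808), of which 0.75 came after P7.

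In cortex Sox5 counts were 480.1, 495 and 536 at P1, 582, 587 and 588 at P7, then 475, 509, 537 and 564 at P14. P1 and P14 overlapped and their difference of 0.05 ± 0.09 was not called (limma adjusted p = 0.645). It was 0.27 to 0.33 and called under TMM and median-ratio scaling, edgeR and DESeq2. In hippocampus the later Sox5 step of 0.49 ± 0.17 (adjusted p = 0.0446) was not called without a filter (0.49), under quantile normalization (0.24), or without any 1 of the 3 P7 libraries or P14 replicate 3 (0.37 to 0.50).

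Sox6 (GRCm38 chr7:115470872-116038796, minus strand), its SOXD partner, rose late in the olfactory bulb, where counts were 318, 453 and 357 at P1, 391, 452 and 315 at P7, then 719.5, 692 and 668 at P14. P1 and P7 overlapped, and P14 lay above P7 by 0.86 ± 0.17 (limma adjusted p = 0.00201). In cortex counts were 430.1, 515 and 553 at P1, 737, 878 and 787 at P7, then 575, 559.7, 709.5 and 634 at P14: it rose by 0.68 ± 0.12 to P7 and then fell to P14 (-0.37 ± 0.11; limma adjusted p = 0.000751 and 0.0154). The later fall was -0.23 to -0.18 and not called under TMM and median-ratio scaling, edgeR and DESeq2, nor without P7 replicate 2 (-0.30). The net change of 0.31 ± 0.11 (adjusted p = 0.0272) was 0.53 to 0.59 in those 4 fits and was not called without P1 replicate 1 (0.21), P14 replicate 3 (0.25) or P14 replicate 4 (0.30). No Sox6 change was called in hippocampus, where counts were 565 to 1006.

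Counted over the group, from P1 to P14, 4 of 9 tested members rose and 2 fell in cortex, where 24% of the 11822 genes tested were called higher and 40.3% lower. The hippocampus had 3 of 10 higher and 2 lower (21% and 28.5% of 11578 genes). The olfactory bulb had 4 of 9 higher and 3 lower (24.8% and 31.4% of 11490 genes), without Sox3, which was tested there only through its P14 values. These are counts of few genes, and much of the transcriptome changed in the same comparison. The median member differed by 0.31 on the log2 scale in cortex, 0.36 in the bulb without Sox3 and 0.09 in hippocampus, where the median of all genes tested was -0.27, -0.24 and -0.29. TMM scaling brought the cortex median of all genes to 0.01 and its split from 2843 higher and 4765 lower to 3808 and 3619.

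The earlier step, P1 to P7, had 4 of 9 members higher and 2 lower in cortex (15.6% and 18.1% of all genes). For hippocampus the numbers were 3 and 2 of 10 (11.2% and 6.92%), and for the bulb without Sox3 0 and 2 of 9 (7.59% and 2.98%). The later step, P7 to P14, had 1 member higher and 4 lower in cortex (18.6% and 31.3%), 2 and 2 for hippocampus (12.5% and 17.7%), and 5 and 2 for the bulb without Sox3 (20.4% and 26.6%). TMM scaling moved the split of all cortex genes at these steps from 1850 higher and 2135 lower to 2166 and 1663, and from 2197 and 3696 to 3038 and 2698. Sox4 and Sox11 were the members called lower in all 6 of these comparisons. Sox9 was called higher in 5 of the 6. The number called at the later step went from 5 to 3 in cortex under TMM and median-ratio scaling, edgeR and DESeq2 and without P7 replicate 2. For hippocampus it went from 4 to 1 without P7 replicate 1 or 2, and to 2 without P7 replicate 3 or P14 replicate 3. Under quantile normalization no hippocampus member was called higher at this step, since Sox5 (0.24) and Sox9 (0.016) lost their calls. Sox1 (-0.59) and Sox21 (-0.61) were then called lower.

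**Figure D2:**
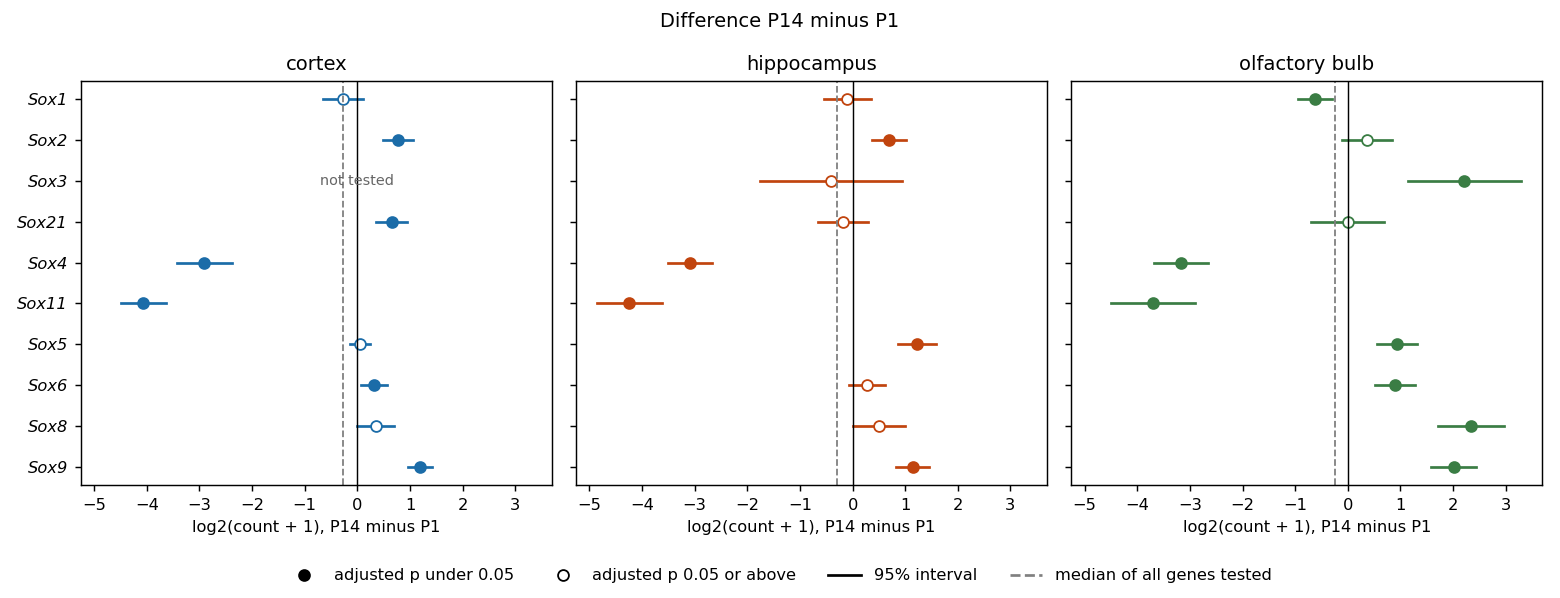
Log2 difference P14 minus P1 on log2(count + 1) for each SOX gene (limma estimate with its 95% interval), in 1 panel per region; filled points have an adjusted p under 0.05 and the dashed line is the median of all genes tested. Sox11 and Sox4 lie between -4.24 and -2.91, and Sox9 lies above 1 everywhere. Sox3 was not tested in cortex. In olfactory bulb it passed the minimum only through its P14 values, so its point and interval there are no test.

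Levels of different genes were compared per kilobase of merged exon (GENCODE M21). The merged exons of all transcripts came to 14376 bases for Sox5 and 14832 for Sox6, against 2057 to 8311 for the other members. Ranks and shares per kb rest on these lengths, and shorter lengths for Sox5 and Sox6 would raise their values. At P1 Sox11 was the highest member in all 3 regions, at 481 ± 153 normalized counts per kb in cortex, 1440.1 ± 102 in the bulb and 1336 ± 322 in hippocampus (SD, n = 3 each). Sox4 and Sox11 made up 47.3% to 63.1% of the summed SOX level per kb in the cortex P1 libraries and 3.93% to 6.25% at P14. Hippocampus went from 70.8% to 73.1% down to 8.09% to 9.43%, and the bulb from 77.7% to 79.8% down to 10.5% to 18.6%.

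At P14 Sox9 led in all 3 regions, at 319 ± 15.7 per kb in cortex (SD, n = 4), 360.3 ± 32.2 in the bulb and 440.0 ± 53.3 in hippocampus (SD, n = 3 each). Sox2 came next, at 215 ± 26.8, 186 ± 57.4 and 217 ± 26.9, and in no region did a P14 library have Sox2 above the lowest Sox9. The next places did not separate, since in cortex Sox8 was at 92 ± 17.4 and Sox21 at 91.7 ± 13.6 per kb. By group means Sox9 and Sox2 also led, in that order, in the P28 controls of each region, though Sox2 stood above Sox9 in olfactory bulb control replicate 2 (a ratio of 1.27). In cortex they were at 285 ± 44.6 and 184 ± 15 (SD, n = 4), and Sox3 was last in every group. At P7 the orders differed: Sox2 and Sox9 were level in cortex (237 ± 33 and 236 ± 24; SD, n = 3), while Sox11 still led in olfactory bulb (393 ± 238; SD, n = 3).

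The ratio of Sox9 to Sox11 within a library does not depend on the scaling. Per kb it was 0.178 to 0.388 in the cortex libraries of P1, 1.97 to 2.56 in those of P7 and 9.16 to 13.7 in those of P14. Hippocampus had 0.144 to 0.156, 1.38 to 3.7 and 5.37 to 6.92 in the same order, olfactory bulb 0.0513 to 0.0712, 0.123 to 0.489 and 1.93 to 4.52. No ages overlapped within a region. Per kb, the P7 libraries were all above 1 in cortex and hippocampus and all below 1 in olfactory bulb. The side of 1 rests on the merged exon lengths, 8311 bases for Sox11 and 4135 for Sox9. By counts alone, P7 replicate 1 of cortex and of hippocampus and P14 replicate 2 of olfactory bulb lay below 1.

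**Figure D3:**
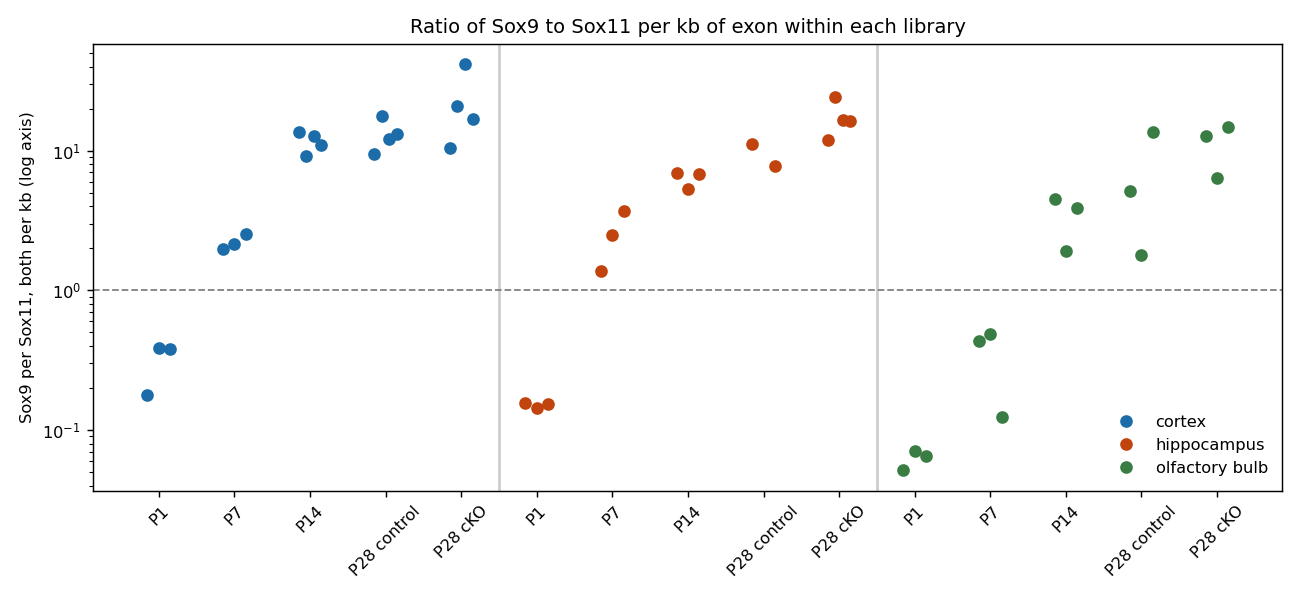
Ratio of Sox9 to Sox11, both per kb of exon, in each of the 48 libraries on a log axis, by region and group; the dashed line marks a ratio of 1. All P1 libraries lie below 1 and all P14 libraries above it, and the P7 libraries of olfactory bulb are the only P7 points below the line. The side of the line rests on the exon lengths used.

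Genes whose course was most like that of Sox2, Sox9 and Sox11 were found by the root mean square difference from the member over the 28 developmental libraries, on log2(value + 1) centred in each table. For Sox9 they were Hadha, a subunit of mitochondrial fatty acid oxidation, the phosphatase gene Phlpp1 and Laptm4a, at 0.20 to 0.21 where the median gene was at 0.93. For Sox2 they were Pdcd6ip, Rab33b and Stt3b at 0.21 to 0.23 (median gene 0.74). For Sox11 they were Mn1, Hn1 and Mex3a at 0.50 to 0.59 (median gene 1.70), which changed by -4.00, -3.52 and -4.54 from P1 to P14 in cortex. Among the SOX genes, Sox5 and Sox6 were the closest of the 36 pairs without Sox3, at 0.32. Pairs from different groups were almost as close: Sox2 and Sox6 (0.33), Sox21 and Sox6 (0.35) and Sox2 and Sox5 (0.35). The SOXC pair, Sox4 and Sox11, came at rank 17 (0.55). This measure grows with the size of the changes, so pairs that change little rank as close. Set against the genes most like Sox11, Sox4 lay between Mn1 (0.50) and Hn1 (0.58).

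Of the 9 other SOX genes listed, 4 were tested in cortex and hippocampus and 5 in olfactory bulb. Sox10, the SOXE gene of oligodendrocytes, was higher at P14 than at P1 in cortex, at means of 37.6 against 18.5, and in olfactory bulb, at 29.3 against 5.94 (log2 changes 0.96 and 2.22, limma adjusted p = 0.0129 and 0.0118). In hippocampus its mean was 3.02 at P1, 26.0 at P7 and 1.67 at P14, and it passed the minimum only through P7, so no test is given. Sox12, the remaining SOXC gene, fell by 2.26 in cortex and 2.36 in olfactory bulb (limma adjusted p = 4.63e-07 and 1.25e-04). In hippocampus the Sox12 difference of -3.12 ± 1.24 (SE) was not called (adjusted p = 0.0550).

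Of 10 glial partners and targets of SOX9, 6 rose and 2 fell from P1 to P14 in cortex, where 24% of all genes were called higher and 40.3% lower. Hippocampus had 5 higher and 3 lower (21% and 28.5%), olfactory bulb 9 higher and 0 lower (24.8% and 31.4%). Fgfr3, a growth factor receptor of astrocytes, went from a mean of 349 to 2056 in cortex, 9.40 to 745 in the bulb and 287 to 1639 in hippocampus. Mmd2, a membrane protein gene, rose as well, by a log2 change of 1.36 in cortex, 3.95 in the bulb and 2.18 in hippocampus. Nfix, of the nuclear factor I family that works with SOX9, fell in cortex (-1.07) and hippocampus (-1.25) and rose in olfactory bulb (1.60). Whether the regions differ was not tested.

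Of 10 neural progenitor genes, 1 rose and 4 fell in cortex, 3 rose and 5 fell in the bulb, and 0 rose and 5 fell in hippocampus. Against the same shares of all genes, the 4 of 10 lower in cortex are near the background. Nes, the intermediate filament of progenitors, had a log2 change of -5.57 in cortex, -1.39 in the bulb and -3.28 in hippocampus, called lower in each. Fabp7, a lipid carrier of radial glia, fell in cortex (-3.04) and hippocampus (-0.45) and rose in olfactory bulb (2.06).

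At P28 no SOX gene passed the threshold between Gabbr1 cKO and control in any region, with 9 of 10 tested in each because Sox3 was under the minimum. The background was as low: with limma 0.00982% of genes were called in cortex, which is Gabbr1 alone of 10188, and 0% in both other regions, of 11639 and 11539 genes. At an unadjusted p under 0.05, limma had 0, 0 and 1 of the SOX genes, and 221, 296 and 349 of all genes. With edgeR and DESeq2 the SOX count was also 0 in all 3 regions. Over all genes edgeR called 1, 0 and 0 and DESeq2 1, 1 and 22 in cortex, hippocampus and bulb. The intervals show the size of change these libraries leave possible. They are printed for all but hippocampus Sox21, Sox5 and Sox6, whose intervals are only drawn in the plot of P28 differences.

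Sox9, the leading member at P28, had cortex counts of 911, 1273, 1210.2 and 1321 in control and 1084, 1476, 1542 and 1139 in cKO libraries. The groups overlapped, as those of all 9 tested members did in cortex (1.89% of all genes did not overlap), and the cKO minus control difference was 0.15 on the log2 scale (95% interval -0.26 to 0.56; limma adjusted p = 1.00). Hippocampus counts were 1427 and 1657 in control and 1807, 1632, 1814 and 1457 in cKO libraries, with a difference of 0.12 (-0.45 to 0.69; adjusted p = 0.952). In olfactory bulb they were 1031, 684 and 906 in control and 1299, 1106 and 1173 in cKO libraries. There all 3 cKO libraries lay above all 3 controls, by 0.47 (-0.03 to 0.96; limma adjusted p = 0.877), and 10% of all genes had groups that did not overlap. Without control replicate 2, the library with the low Rn45s share and the lowest Sox9, the difference was 0.30.

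Sox8 had the largest P28 difference of the members. Its olfactory bulb counts were 279, 104 and 507 in control and 559, 449 and 570.1 in cKO libraries. Control replicate 3 lay inside the cKO range and control replicate 2 was far below the rest. The difference was 1.09 (95% interval 0.06 to 2.12; limma unadjusted p = 0.0404, adjusted p = 0.877), and 0.47 without control replicate 2. In cortex the counts were 94, 322, 275 and 279 in control and 232, 223, 235 and 257 in cKO libraries, and in hippocampus 171 and 264 in control and 312, 202, 229.9 and 295 in cKO libraries. The groups overlapped in both, at differences of 0.11 (-0.57 to 0.79) and 0.27 (-0.47 to 1.01).

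Sox2 at P28 had cortex counts of 384, 369, 343 and 417 in control and 372, 489.9, 359.6 and 368 in cKO libraries, a difference of 0.06 (95% interval -0.33 to 0.46; limma adjusted p = 1.00). Hippocampus counts were 332 and 367 in control and 504, 1072, 426 and 379.7 in cKO libraries. All 4 cKO libraries lay above both controls, while 15% of all genes had groups that did not overlap in this comparison, and the difference was 0.64 (-0.28 to 1.56; adjusted p = 0.936). It was 0.31 without cKO replicate 2, the library with the low Rn45s share. In olfactory bulb the counts were 338, 431 and 350.1 in control and 419, 304 and 373 in cKO libraries, with a difference of -0.03 (-0.57 to 0.50).

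That hippocampus library also held the highest Sox1, Sox5, Sox6 and Sox21 counts of its table. Hippocampus Sox1 counts were 214 and 250.0 in control and 361, 1366, 249 and 259.5 in cKO libraries, and the difference of 0.87 (95% interval -0.52 to 2.25; limma adjusted p = 0.936) was 0.31 without it. Sox21 was at 195 and 343 in control and 390.2, 698, 324 and 254 in cKO libraries, a difference of 0.58 that was 0.30 without it. Sox5 was at 361 and 365 in control and 385, 815, 295 and 286 in cKO libraries, a difference of 0.15 that was -0.18 without it. Sox6 was at 541 and 558 in control and 554, 753, 562 and 569 in cKO libraries, a difference of 0.14 that was 0.03 without it.

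The SOXC genes at P28 were low. Hippocampus Sox4 counts were 79 and 111 in control and 61, 50.6, 49.5 and 51.6 in cKO libraries, so all 4 cKO libraries, at 35 to 67 reads, lay below both controls. In this comparison 15% of all genes had groups that did not overlap. The difference was -0.81 (95% interval -1.72 to 0.10; limma adjusted p = 0.936). Hippocampus Sox11 counts were 257 and 425 in control and 305, 134, 219.6 and 179 in cKO libraries and overlapped, at -0.72 (-1.59 to 0.16; adjusted p = 0.936). Choroid plexus and ependymal markers were high and spread in these libraries, at a summed level of 67883 to 139490 in the controls and 11268 to 127133 in cKO. Their part in the SOXC values was not tested.

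In cortex Sox4 counts were 82.4, 23.4, 30.7 and 58.8 in control and 294, 35.7, 16 and 33.6 in cKO libraries. cKO replicate 1, at 262 reads, was above all other cortex P28 libraries, and leaving it out turned the difference from 0.18 (95% interval -1.28 to 1.64) to -0.67, neither called. Cortex Sox11 counts were 194, 145, 202 and 201 in control and 208, 142, 74.3 and 134 in cKO libraries, a difference of -0.49 (-1.10 to 0.13; limma adjusted p = 1.00). In olfactory bulb Sox4 counts were 146, 163 and 71 in control and 125, 107 and 47.8 in cKO libraries and Sox11 counts 405, 768 and 133 in control and 205, 350.4 and 158 in cKO libraries. The differences were -0.47 (-1.47 to 0.54) and -0.62 (-1.83 to 0.59), and without control replicate 2 they were -0.24 and -0.05.

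The Sox9 to Sox11 ratio per kb was 9.42 to 17.7 in cortex control libraries and 10.5 to 41.7 in cKO. Hippocampus had 7.83 to 11.2 and 11.9 to 24.4, without overlap, and olfactory bulb 1.79 to 13.6 and 6.34 to 14.9, with overlap. These ratios were not tested, and 15% of single genes also had no overlap in hippocampus.

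The other members overlapped between genotypes. In cortex Sox1 differed by -0.11 (95% interval -0.72 to 0.51), Sox21 by -0.40 (-1.07 to 0.27), Sox5 by -0.14 (-0.67 to 0.39) and Sox6 by 0.03 (-0.37 to 0.44). In olfactory bulb the values were 0.16 for Sox1 (-0.64 to 0.96), 0.31 for Sox21 (-0.56 to 1.19), 0.46 for Sox5 (-0.13 to 1.04) and 0.13 for Sox6 (-0.40 to 0.65). Olfactory bulb Sox1 was 0.56 without control replicate 2, the highest of the controls at 822. Sox3 had 0 to 12 reads in every P28 library, and 9 of the 20 P28 libraries had none, where a count of 0 allows up to 3 reads.

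**Figure D4:**
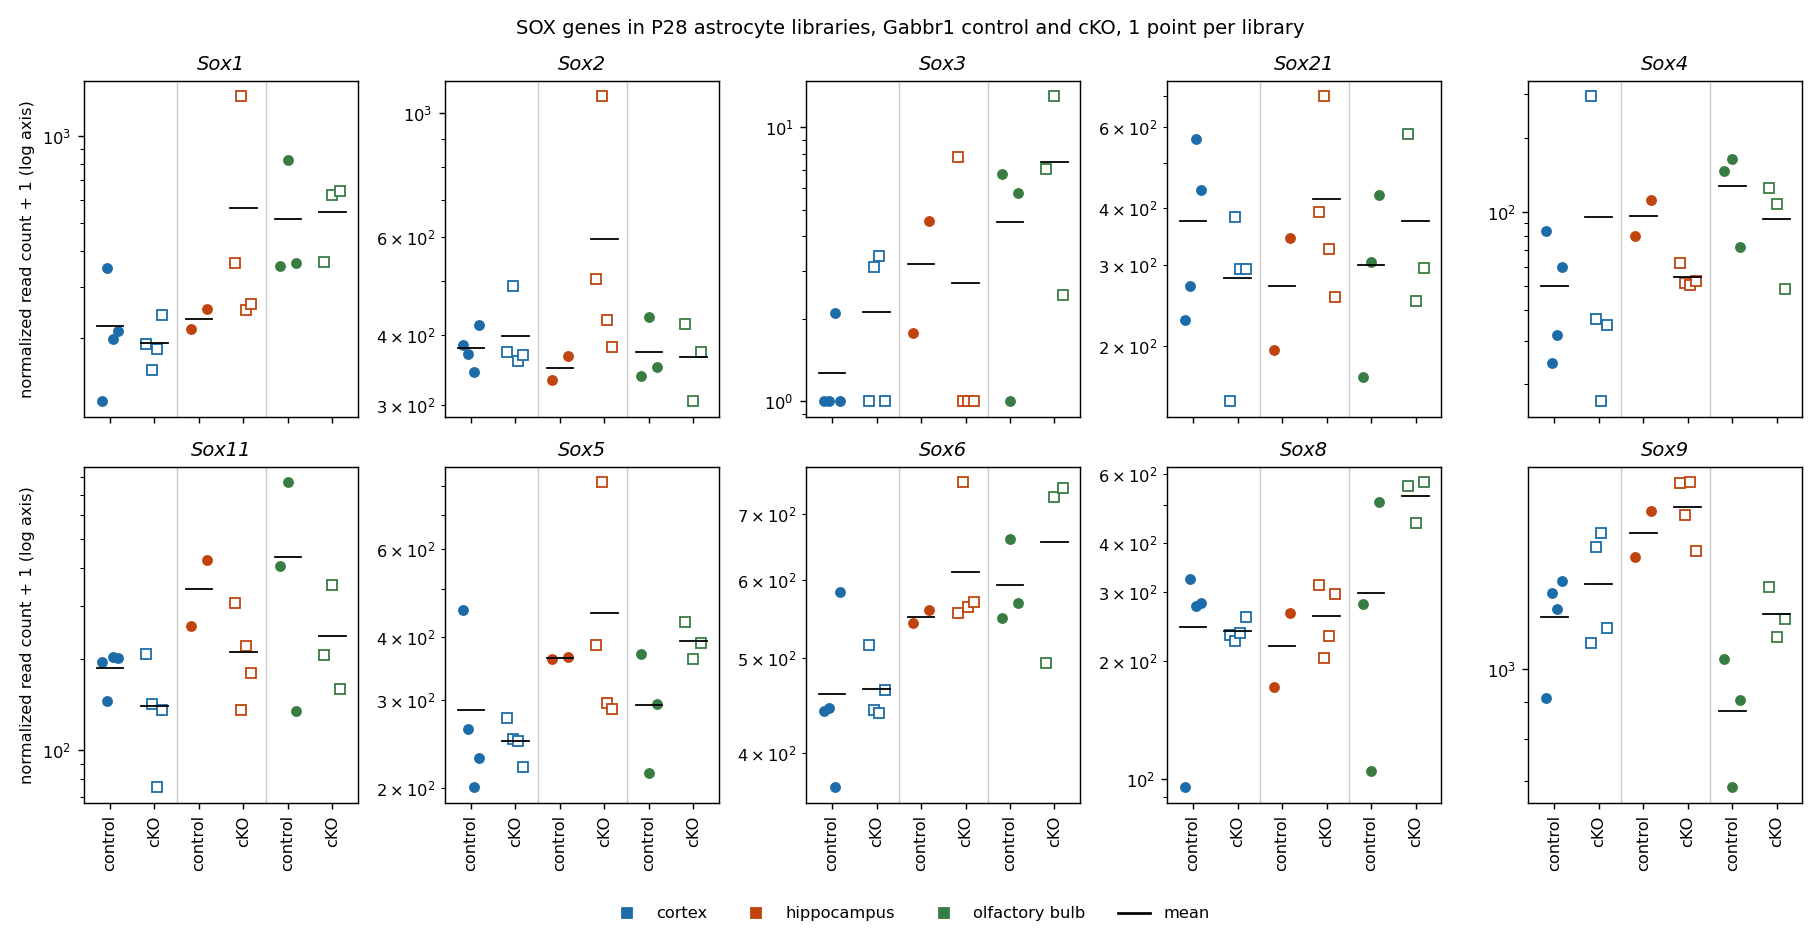
Normalized read counts plus 1 on a log axis for the 10 SOX genes in the 20 P28 libraries, 1 point per library and a line at the group mean; filled circles are Gabbr1 control, open squares cKO, and regions are colored as in the plot of the developmental libraries. Single libraries, such as hippocampus cKO replicate 2 for Sox1 and Sox2 and cortex cKO replicate 1 for Sox4, lie far from the rest of their group.

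**Figure D5:**
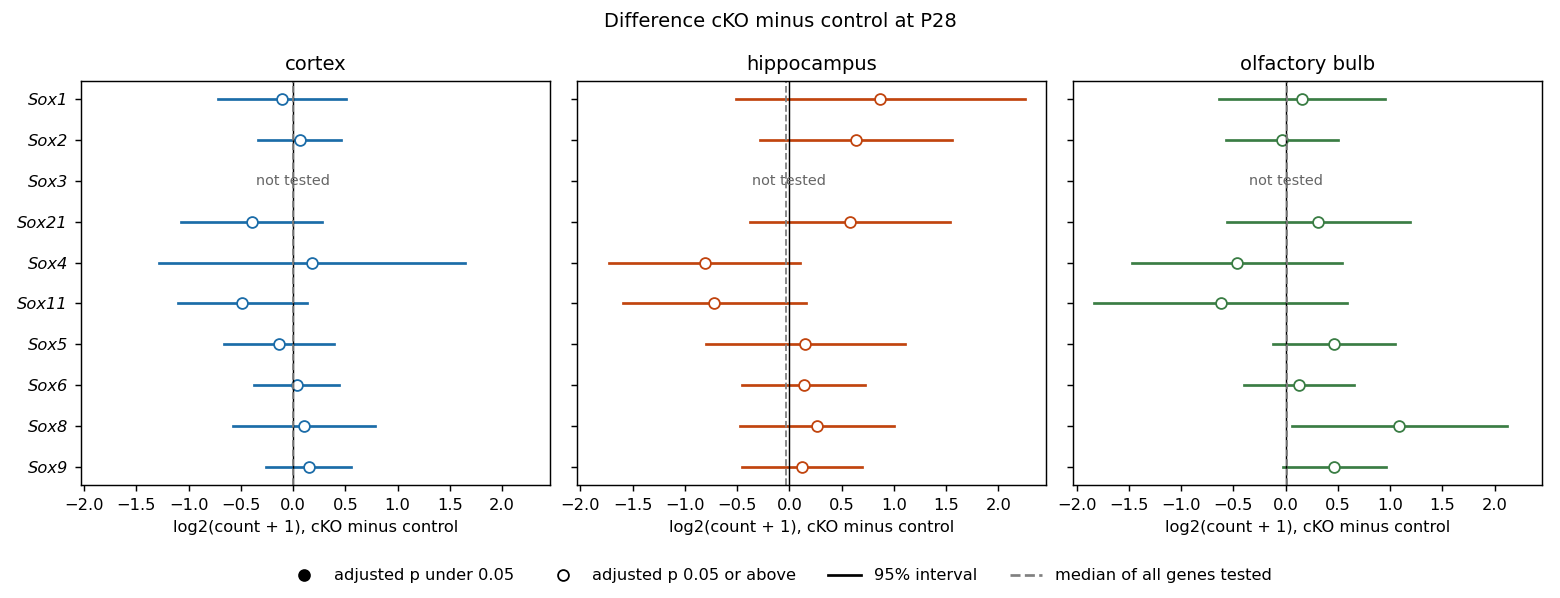
Log2 difference cKO minus control at P28 on log2(count + 1) for each SOX gene (limma estimate with its 95% interval), in 1 panel per region; open points have an adjusted p of 0.05 or above and the dashed line is the median of all genes tested. All 27 points are open, and the olfactory bulb Sox8 interval is the only one that lies wholly on 1 side of 0.

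None of the listed genes was called at P28 either: 0 of 10 glial partners and targets of SOX9, 0 of 10 neural progenitor genes and 0 of 10 astrocyte markers with limma in each region. The 4 or 5 other SOX genes tested had none called. Of the cortex P28 libraries, 5 carry the first style of label and 3 the second. With that label as a covariate the cortex SOX differences ranged from -0.44 (Sox11) to 0.22 (Sox8), and within the 5 libraries of the first style from -0.42 (Sox5) to 0.40 (Sox8), with 0 called in both. The 3 libraries of the second style hold 1 cKO library and gave no separate value.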

How the data were processed

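Astrocyte RNA of 3 brain regions was read in 48 libraries made, per the labels' protocols, with a kit for very small RNA inputs. The submitters' processing notes name STAR 2.5.0a, DESeq2 1.20.0, FastQC and MultiQC with the build mm10, without their roles. The counting program, annotation and strand setting are not given in the sources used here. The values are a signal that the authors deposited: gene read counts divided by 1 factor per library, in 6 tables scaled separately. Read counts were recovered from the step between values. 100% of values came out whole within 0.02 of a read in every library, a weak check in olfactory bulb P28 cKO replicate 2, where the step is close to 1. Intervals and floors cover counting error only where they rest on reads.

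From these values, 27 symbols that a spreadsheet had turned into dates were restored. Tests used limma 3.58.1 (R 4.3.3) on log2(value + 1), over genes with a mean of at least 10 in the table, with Benjamini-Hochberg adjustment over all genes tested and a threshold of 0.05. The 3 ages of a region were fitted together, and P28 genotypes were fitted per region. edgeR 4.0.16 and DESeq2 1.42.0 were run on the recovered reads. From P1 to P14 edgeR called 7408 genes in cortex, 5469 for hippocampus and 6399 for olfactory bulb, and limma 7608, 5732 and 6449. The limma script was tested on simulated data. After the results were seen, genes that passed the minimum mean in a developmental table only through their highest age were left out of the counts of listed genes and SOX genes. Named genes are all 10 members, the listed genes quoted as examples, and the 3 genes most like Sox2, Sox9 and Sox11. The members and lists were chosen with earlier results of these data known. Other pseudocounts, filters, scalings and each library left out in turn were tried. Sequences come from RefSeq (GRCm38.p6), in which 8 of the 10 members matched, and gene structures from GENCODE M21 (GRCm38).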

Additional observations from a re-analysis of the deposited data

Results flagged for a closer look

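In groups of 4 libraries, the distance of the highest or lowest library from the rest was tested for each SOX gene. This marked 7 of 40 sets of values. Chance marks about 1 in 20 sets when these are independent and normally distributed. The sets here are raw counts of genes in the same libraries, so the 7 of 40 cannot be judged against that rate. For 2 of the 7, both of Sox3, that rate also fails because with no read in the other libraries any single read is marked. Sox2 in cortex P28 cKO was highest in replicate 2, at 489.9 normalized counts against 359.6 to 372 in the others. Sox4 in cortex P28 cKO was highest in replicate 1, at 294 against 16.0 to 35.7. Sox11 in cortex P28 control was lowest in replicate 2, at 145 against 194 to 202. Sox1 in hippocampus P28 cKO was highest in replicate 2, at 1366 against 249 to 361, and Sox6 in the same library was at 753 against 554 to 569. Sox3 stood out where all other libraries of its group had no read: cortex P28 control replicate 3 was at 1.10 (1 read) and hippocampus P28 cKO replicate 1 at 6.78 (7 reads).

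For 3 genes the later libraries all lay above the earlier ones in a region and all below them in another. The share of all genes that do so is not given here. The difference between regions was not tested, because the tables were scaled separately. Sox2 at P7 against P1 differed by 0.92 in cortex and 0.58 in hippocampus, with every P7 library higher, and by -0.50 in olfactory bulb, with every P7 library lower. Sox5 at P14 against P7 differed by -0.17 in cortex, with every library lower, and by 0.49 in hippocampus and 0.75 in olfactory bulb, with every library higher. The cortex Sox5 value was 0.02 under TMM and 0.01 under median-ratio scaling. Sox6 at P14 against P7 differed by -0.37 in cortex and by 0.86 in olfactory bulb, again without overlap. The cortex Sox6 call was lost under TMM and median-ratio scaling, edgeR and DESeq2. Neither the olfactory bulb Sox2 nor the cortex Sox5 difference was called.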

How the results depend on the processing

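Of the alternatives to the number of SOX genes called, 177 gave the same number within 1.5 times and 9 did not. An equal number can hold other genes, and the 177 include the P28 comparisons, where no member was called. In cortex from P7 to P14 the number was 5, and 3 under TMM scaling, median-ratio scaling, edgeR and DESeq2, with 3 to 5 on leaving out 1 library. In hippocampus from P7 to P14 it was 4, and 1 to 5 on leaving out 1 library. Under quantile normalization the genes called at this hippocampus step changed. The higher calls of Sox5 (0.24) and Sox9 (0.016) were lost, and Sox1 (-0.59) and Sox21 (-0.61) were called lower. Of the values for single genes, 1618 kept direction and side of the threshold, 39 lost a call, 29 gained one and 66 changed sign. The cause was not tested. Scaling the cortex table again moved the median of all genes from P1 to P14 from -0.27 to 0.01 (TMM), and quantile normalization moved that of hippocampus from -0.29 to -0.03. No paired analysis was possible because the labels give no replicate numbers. At P28 all 9 tested members stayed uncalled in each region under every alternative run.

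Sign changes concerned differences mostly near 0. In cortex from P7 to P14, Sox2 was 0.049 (TMM), 0.036 (median-ratio), 0.00023 (edgeR) and 0.026 (DESeq2), and Sox5 was 0.019 (TMM) and 0.0057 (median-ratio). In hippocampus from P7 to P14, Sox6 was 0.025 (TMM), 0.056 (median-ratio), 0.055 (edgeR) and 0.066 (DESeq2). Sox3 was 0.059 (edgeR), 0.074 (DESeq2) and 1.57 (quantile), and quantile normalization gave -0.12 for Sox2 and -0.17 for Sox8. In hippocampus from P1 to P14 quantile normalization gave 0.73 for Sox3 and -0.018 for Sox6. In olfactory bulb Sox6 from P1 to P7 was -0.026 (TMM), and Sox21 from P1 to P14 was 0.0024 (TMM), 0.057 (median-ratio), 0.040 (edgeR) and 0.046 (DESeq2). At P28, cortex Sox8 was -0.029 (edgeR) and -0.036 (DESeq2), cortex Sox21 was 0.052 in the first label style alone, and olfactory bulb Sox2 was 0.015 (TMM) and 0.044 (quantile).

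Leaving out 1 library at a time changed the sign within these ranges. From P1 to P7 they were hippocampus Sox3 from -0.45 to 0.0023, and olfactory bulb Sox3 from -0.17 to 0.061 and Sox6 from -0.084 to 0.18. From P7 to P14 they were cortex Sox21 from -0.058 to 0.11 and Sox8 from -0.13 to 0.17, and hippocampus Sox3 from -0.54 to 0.41, Sox6 from -0.12 to 0.078 and Sox8 from -0.15 to 0.23. From P1 to P14 they were hippocampus Sox1 from -0.21 to 0.087, Sox21 from -0.36 to 0.023 and Sox3 from -0.77 to 0.18, and olfactory bulb Sox21 from -0.32 to 0.24. At P28 they were cortex Sox1 from -0.36 to 0.15, Sox2 from -0.040 to 0.11, Sox4 from -0.67 to 0.70, Sox5 from -0.28 to 0.11, Sox6 from -0.065 to 0.15 and Sox8 from -0.30 to 0.29. The P28 ranges of the other regions were hippocampus Sox5 from -0.18 to 0.32 and Sox8 from -0.047 to 0.58, and olfactory bulb Sox1 from -0.051 to 0.56, Sox2 from -0.14 to 0.093 and Sox21 from -0.047 to 0.62.

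Counts over all genes moved by over 1.5 times as well. A minimum mean of 100, which tests fewer genes, gave 3295, 2067 and 3007 from P7 to P14 and 3986, 3256 and 3413 from P1 to P14 in the order cortex, hippocampus, olfactory bulb, where the numbers were 5893, 3489 and 5396, and 7608, 5732 and 6449. From P1 to P7, olfactory bulb went from 1214 to 2260 with DESeq2 and to 520 to 670 without any P1 library, P7 replicate 1 or P7 replicate 2, and hippocampus from 2092 to 1359 without P1 replicate 3 and 1392 without P7 replicate 3. Hippocampus from P7 to P14 went from 3489 to 2243 and 2007 without P7 replicate 1 and 2. At P28 olfactory bulb went from 0 to 22 with DESeq2 and 1 without control replicate 3, hippocampus from 0 to 1 with DESeq2 and without cKO replicate 2, and cortex from 1 to 3 in the first label style alone. The numbers of SOX genes called under the alternatives include olfactory bulb Sox3, which passed the minimum only through P14. Depth limits Sox3, with 0 to 54 reads per library.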
